A study of Mus musculus with 7 samples.

Results

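The transcription factors that mark the naive state of mouse embryonic stem cells were followed through a series of Sox2 enhancer deletions. The set holds 8 genes, Nanog, Esrrb, Tbx3, Tfcp2l1, Nr5a2, Nr0b1, Prdm14 and Zfp42, found by name in the GENCODE M1 annotation of mm9, out of 31498 genes whose RNA could be counted. Of these names, 7 were used as they stand, and Tfcp2l1 was matched through its older symbol Tcfcp2l1. RNA-seq covered F123, a hybrid embryonic stem cell line from a cross of the strains CAST and 129. It was run on wild type cells, a clone whose 129 allele lacks the distal enhancer of Sox2 (CAST+/129-), a clone whose CAST allele lacks it (CAST-/129+) and a clone that lacks both copies (CAST-/129-). Values of the clones are given in this order. ChIP-seq of H3K4me3 and H3K27ac in F123 cells and of H3K27ac in J1 cells, an embryonic stem cell line of 129 background, came from cells that keep the enhancer. Each deletion was made with Cas9 and 2 guide RNAs and each mutant library is 1 clone. Per the study's methods the clones were grown out on feeder cells and passaged without feeders before harvest. There was 1 library per condition, so no difference between genotypes has a replicate check and no p-value is given. Intervals are 95% intervals of the counts and cover counting error only, and they are too narrow because lines of the files are not fully independent reads.

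Naive pluripotency is the state of the inner cell mass before implantation, held in culture by LIF and by a dense network in which these factors bind near one another's genes and their own. Sox2 works with Oct4 at the centre of that network, often on a joined Sox and Oct motif. When the cells move toward the primed epiblast, most of these factors are lowered or switched off while Oct4 stays on.

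All 8 factors had their highest RNA level in wild type and lay below it in all 3 deletion clones, which makes 24 of 24 values. Levels are given as FPKM, the distinct sense alignments per kb of exon scaled to all alignments on genes, and a gene was called lower when FPKM plus 4 was at least 3-fold under wild type. In CAST-/129- all 8 were called lower, from 8.08% of the wild type level for Prdm14 to 29.9% for Nanog, whereas 0.511% of all genes passed the same rule. In each monoallelic clone 3 of the 8 were called lower, Tbx3, Tfcp2l1 and Nr0b1 in both, against 0.305% of all genes in CAST+/129- and 0.330% in CAST-/129+. No factor was called higher in any clone, where 0.321%, 0.473% and 0.819% of all genes were. As highly expressed genes pass the rule more readily, the same shares among the 7336 genes of at least 10 FPKM in wild type were 1.28%, 1.40% and 2.15%. Of the 8 factors, 5 (Nanog, Esrrb, Tbx3, Tfcp2l1 and Zfp42) are on a list of lowered genes that the study drew from these same libraries, so their direction is not independent of that choice. Nr5a2, Nr0b1 and Prdm14 were called lower in CAST-/129- here but are not on that list. The study's methods state the same added value and fold, and the source of the difference was not tested.

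**Figure D1:**
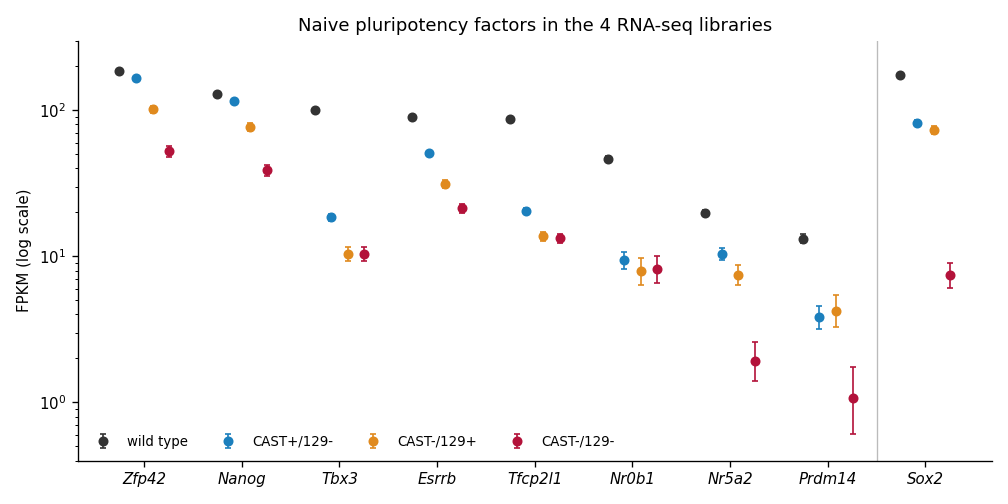
RNA level of the 8 naive factors and of Sox2 in FPKM on a log axis, 1 point per library, with bars for the exact 95% Poisson interval of the alignment count. Wild type lies highest for every gene, and Tbx3, Tfcp2l1 and Nr0b1 lie close together in CAST-/129+ and CAST-/129-.

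Sox2 itself, the gene whose enhancer was deleted, was at 174.7 FPKM in wild type and at 82.0, 73.1 and 7.40 in the clones. These totals follow the number of enhancer copies in the labels, but alleles were not told apart here, so which allele each monoallelic clone lost was not checked. The 8 factors did not follow Sox2 in 1 common pattern. Counted as the part of the wild type to CAST-/129- difference already present with 1 enhancer copy left, Sox2 had lost 55.4% in CAST+/129- and 60.7% in CAST-/129+. Tbx3, Tfcp2l1 and Nr0b1 had lost 90.9%, 90.1% and 96.7% in CAST+/129- and 99.9%, 99.3% and 100.6% in CAST-/129+. Nanog and Zfp42 had lost 16.03% and 14.9% in CAST+/129- but 58.7% and 63.1% in CAST-/129+. Esrrb, Nr5a2 and Prdm14 lay between these, at 56.3%, 52.6% and 77.4% in CAST+/129- and 85.3%, 68.9% and 73.9% in CAST-/129+. All these shares are by distinct alignments and carry no intervals. By reads, Nanog was at 80.7%, 51.6% and 24.7% of wild type and Zfp42 at 77.4%, 41.3% and 19.2%. The shares that Nanog and Zfp42 had lost with 1 copy left are larger by that count. The level was lower in CAST-/129+ than in CAST+/129- for 7 of the 8, Prdm14 being the exception. For Nr0b1 (84.4%, 65.0 to 108.8) and Prdm14 (111.2%, 81.2 to 151.3) the counts do not separate these clones. Whether this order comes from the allele or from the clone cannot be told apart with 1 clone each.

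**Figure D2:**
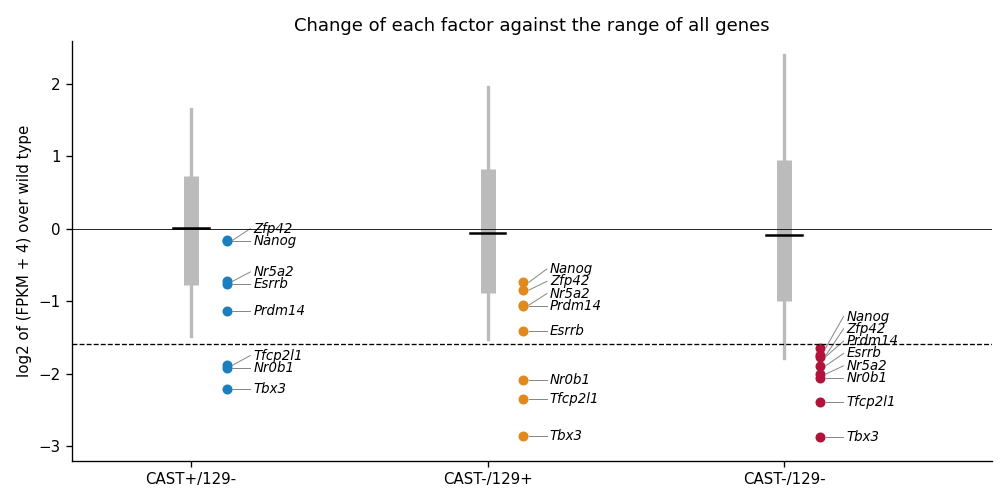
Log2 of FPKM plus 4 over wild type for each factor (points) in each clone, beside the 9528 genes with a mean of at least 5 FPKM. The thick grey bar runs from the 5th to the 95th percentile of those genes, the thin one from the 1st to the 99th, the black tick is their median, and the dashed line is the 3-fold threshold.

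The median log2 ratio of the 8 factors was -0.95 in CAST+/129-, -1.24 in CAST-/129+ and -1.95 in CAST-/129-. For the 9528 genes with a mean of at least 5 FPKM it was 0.01, -0.05 and -0.08. In bulk RNA fewer cells that express a factor and less RNA in each cell cannot be told apart.

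Nanog, the homeodomain factor that lets cells self-renew with less LIF, lies at chr6:122657507-122664651 on the plus strand of mm9. Its level was 130.0 FPKM in wild type and 115.4, 76.5 and 38.9 in the clones. The clones thus kept 88.8% (85.1 to 92.5), 58.8% (55.1 to 62.8) and 29.9% (27.3 to 32.7). The CAST+/129- clone stayed near wild type, and the call in CAST-/129- was close to the threshold, with FPKM 3.35-fold under wild type and a log2 ratio of -1.64 once 4 was added to both levels. Within 2 kb of its start the H3K27ac signal of F123 was 71.6-fold and that of J1 38.0-fold over the chromosome mean of the library, and H3K4me3 was 11.8-fold. Its promoter is shown because it is the one among the 8 that holds the joined Sox and Oct motif, CATTGT followed after 1 base by ATGCAAA, with up to 1 mismatch allowed and both strands searched. The match is exact, lies on the minus strand 62 bases before the first annotated start and is in capitals in the 250 bases upstream of that start, chr6:122657257-122657506, plus strand. Such a match occurred in 11 of 22367 protein-coding genes (0.0492%).
Nanog promoter: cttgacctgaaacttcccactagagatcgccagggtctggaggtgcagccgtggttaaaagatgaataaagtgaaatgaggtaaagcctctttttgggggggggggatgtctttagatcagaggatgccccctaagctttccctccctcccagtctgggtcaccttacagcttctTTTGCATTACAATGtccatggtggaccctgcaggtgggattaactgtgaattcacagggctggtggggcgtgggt

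Acetylation near Nanog did not stop at the promoter. The highest 1 kb bin away from any annotated start lay 5.1 kb upstream, at 156-fold in F123 (126.6 to 190.1) and 108-fold in J1, above 99.7% and 99.9% of protein-coding genes. In F123 this bin belonged to an acetylated stretch of 16 kb that ran from 6.6 kb upstream to 9.4 kb downstream. Further stretches of 10 kb and 14 kb lay 46.6 kb upstream and 50.4 kb downstream and reached 116-fold and 127-fold. The stretches are runs of bins over 5-fold with gaps of at most 2 kb, and which gene each one serves was not measured. Dppa3, the next gene upstream at 77217 bases and a germ line and naive marker, went the other way, from 6.86 FPKM in wild type to 89.4, 108.4 and 31.1 in the clones.

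Zfp42 (Rex1), a zinc finger gene used as a reporter of naive cells, lies at chr8:44380422-44392363 on the minus strand. It was the most abundant of the 8 in every library, at 185.3 FPKM in wild type and 165.5, 101.4 and 52.3 in the clones. Relative to wild type these are 89.3%, 54.7% and 28.2%, close to the course of Nanog. Its chromosome moved too. The 545 genes of chromosome 8 at a mean of 5 FPKM or more had a median log2 ratio of 0.07, -0.34 and -0.28, against 0.01, -0.03 and -0.07 for the other chromosomes. Taken relative to the chromosome 8 median, Zfp42 no longer passed 3-fold in CAST-/129-. Whether a change in chromosome number or state lies behind this shift was not tested.

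The Zfp42 promoter is shown because it holds the octamer ATGCAAAT and the Klf-type motif GGGTGTGG, both on the strand opposite to the gene and in capitals as their reverse complements (chr8:44392364-44392613, minus strand). The octamer, which shares 7 letters with the second part of the joined motif, was present before a start of 1.59% of protein-coding genes, and GGGTGTGG before 3.17%. This start had 51.6-fold H3K27ac in the F123 library, 35.1-fold in the J1 library and 11.9-fold H3K4me3.
Zfp42 promoter: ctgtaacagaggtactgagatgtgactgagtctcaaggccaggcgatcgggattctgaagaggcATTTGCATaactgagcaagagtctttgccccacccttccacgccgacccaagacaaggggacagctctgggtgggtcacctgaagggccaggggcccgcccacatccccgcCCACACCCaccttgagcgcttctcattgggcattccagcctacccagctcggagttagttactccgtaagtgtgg

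Nanog and Zfp42 are also the members whose exons have most copies elsewhere in the genome. Of the 31-base words in their exons, 34.9% and 45.7% occur again on another site of mm9, against 0% for Nr0b1 to 9.87% for Nr5a2 in the rest. Windows of 100 bases in which every such word has a copy made up 2.19% and 13.1% of their exonic windows. Placement of such reads by the aligner is not given in the sources used here. Whether the lower level held along the whole transcript depended on the way of counting. By reads, the 4 exonic segments of Nanog with at least 100 wild type reads lay between 15.2% and 26.9% of wild type in CAST-/129-, and the 4 of Zfp42 between 17.0% and 26.1%. Across the 8 genes all 53 such segments were below wild type in each of the 3 clones by reads. By distinct alignments, the measure used for the levels above, 49, 51 and 51 of the 53 were. The exceptions were short segments of Zfp42 and Nanog. Segment 2 of Zfp42, of 84 bases, was at 132.7 FPKM in wild type and at 182.5, 182.7 and 159.2 in the clones. By reads the same segment was at 86.1%, 37.8% and 26.1% of wild type. It held 3132 reads on 277 distinct alignments in wild type, but 108 reads on 78 in CAST-/129-. Its segment 3, of 78 bases, was at 139.8 FPKM against 183.2, 226.4 and 145.1. In CAST+/129- segment 1 of Zfp42 was at 138.7 against 123.1 FPKM and segment 4 of Nanog at 109.8 against 87.9.

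Esrrb, Nr5a2 and Nr0b1 are orphan nuclear receptors. Esrrb and Nr5a2 activate naive genes and can stand in for other factors in reprogramming, whereas Nr0b1 (Dax1) has no classical DNA binding domain and acts through partners. Esrrb (chr12:87702067-87862578, plus strand) stepped down from 89.9 FPKM in wild type to 51.3, 31.4 and 21.3. The proportions were 57.0% (55.0 to 59.1), 34.9% (32.8 to 37.1) and 23.7% (22.0 to 25.5) of wild type, with no overlap between their intervals.

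Of the 5 annotated Esrrb starts, the promoter in use stood inside the annotated gene. H3K4me3 was 20-fold at the start 109000 bases downstream of the outermost one, where it was 0.508-fold. The starts 48473 and 48234 bases before the marked one had 5.28-fold and 5.18-fold H3K4me3, just over 5-fold. RNA gave the same picture, with 5 alignments in the exons before the marked start and 13507 after it in wild type. The 250 bases before the marked start are printed to place it, chr12:87810817-87811066, plus strand, and hold none of the 5 motifs searched.
Esrrb promoter: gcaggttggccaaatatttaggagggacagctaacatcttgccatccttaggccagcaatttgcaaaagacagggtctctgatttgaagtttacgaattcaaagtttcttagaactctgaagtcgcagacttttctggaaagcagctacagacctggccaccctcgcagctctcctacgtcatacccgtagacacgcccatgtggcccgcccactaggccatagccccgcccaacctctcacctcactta

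From there acetylation spread over much of the gene. In F123 a stretch of 71 kb ran from 17.1 kb before this start to 53.9 kb after it at a mean of 55.1-fold, and in J1 one of 64 kb had a mean of 27.4-fold. Its top bin, 33.4 kb inside, reached 264-fold in F123 and 97.5-fold in J1. Close by, 34292 bases past the marked start, lies a further annotated start with H3K27ac of 169-fold but H3K4me3 of 3.25-fold. TCAAGGTCA, the extended site bound by Esrrb and Nr5a2 type receptors, was looked for on both strands in bins over 5-fold in both H3K27ac libraries. It occurred in 7 of 68 such bins around Esrrb (10.3%). The matches of the bins over 50-fold in F123 are printed with 16 bases on each side on the strand of the match, the motif in capitals. They lie at chr12:87820761-87820801 (plus), chr12:87827827-87827867 (minus), chr12:87842993-87843033 (plus), chr12:87844485-87844525 (plus) and chr12:87845453-87845493 (plus).
Esrrb +9.7 kb: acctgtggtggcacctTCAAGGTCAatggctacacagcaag
Esrrb +16.8 kb: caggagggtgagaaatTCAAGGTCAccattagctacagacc
Esrrb +31.9 kb: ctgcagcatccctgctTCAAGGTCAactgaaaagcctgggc
Esrrb +33.4 kb: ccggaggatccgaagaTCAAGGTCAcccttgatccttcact
Esrrb +34.4 kb: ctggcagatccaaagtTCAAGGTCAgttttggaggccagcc

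Among the other factors the motif was found in 3 of 39 bins around Nanog, 3 of 23 around Tfcp2l1, 2 of 28 around Prdm14 and 1 of 37 around Tbx3. It was in none of the 9 bins of Nr5a2, the 3 of Nr0b1 or the 27 of Zfp42. Over the 8 genes this makes 16 of 234 bins (6.84%), where 4.86% of all bins over 5-fold in both libraries and 2.08% of all 1 kb bins hold it. The octamer, Klf-type and Stat-type motifs were no more frequent in these bins than in all bins over 5-fold in both libraries. The joined Sox and Oct motif was in 1 of the 234 (0.427% against 0.300%). This is the match in the Nanog promoter shown above, and 1 bin is too few to compare shares. The octamer ATGCAAAT was in 4.70% against 5.26%, the Klf-type GGGTGTGG in 13.2% against 13.3% and the Stat-type TTCCNGGAA in 3.85% against 3.88%. A match says only that the letters are there.

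Nr5a2 (chr1:138740161-138857004, minus strand) was at 19.8 FPKM in wild type and at 10.4, 7.49 and 1.92 in the clones, the last from 43 alignments. These are 52.5% (47.5 to 58.0), 37.8% (32.2 to 44.2) and 9.71% (7.004 to 13.1) of wild type. The step from 1 enhancer copy to none was large here, since CAST-/129- kept 25.7% (17.9 to 36.03) of the CAST-/129+ level. In this gene, too, the inner of the 2 annotated starts carried the marks. H3K4me3 was 8.53-fold at the inner start and 1.74-fold at the outer one, and H3K27ac 76.0-fold against 1.44-fold in F123 and 39.5-fold against 3.90-fold in J1. The outer first exon of 201 bases had 0 alignments in every RNA library, where 3 alignments in wild type would make 0.601 FPKM. The 250 bases before the inner start, chr1:138850208-138850457 on the minus strand, again hold none of the 5 motifs.
Nr5a2 promoter: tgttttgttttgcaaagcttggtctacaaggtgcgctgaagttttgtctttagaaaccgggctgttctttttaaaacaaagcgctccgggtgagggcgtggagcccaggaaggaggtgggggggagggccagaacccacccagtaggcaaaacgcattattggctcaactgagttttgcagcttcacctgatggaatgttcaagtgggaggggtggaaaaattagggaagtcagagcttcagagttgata

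Nr0b1 (chrX:83437103-83441286, plus strand) fell from 46.7 FPKM in wild type to 9.41, 7.94 and 8.16 in the clones. It was called lower in all 3 clones, at 20.1% (17.4 to 23.2), 17.0% (13.6 to 21.1) and 17.5% (13.9 to 21.7) of wild type. These intervals overlap, and the counts do not separate the 3 clones from one another. Around Nr0b1 the highest H3K27ac bins lay in the stretch that holds the start. At its start H3K27ac reached 23.2-fold in F123, on 18 alignments, and 11.2-fold in J1, on 39 alignments, while the highest bin away from starts held 2 alignments in F123 (10.3-fold, 1.25 to 37.3) and 6 in J1 (6.87-fold, 2.52 to 14.9).

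**Figure D3:**
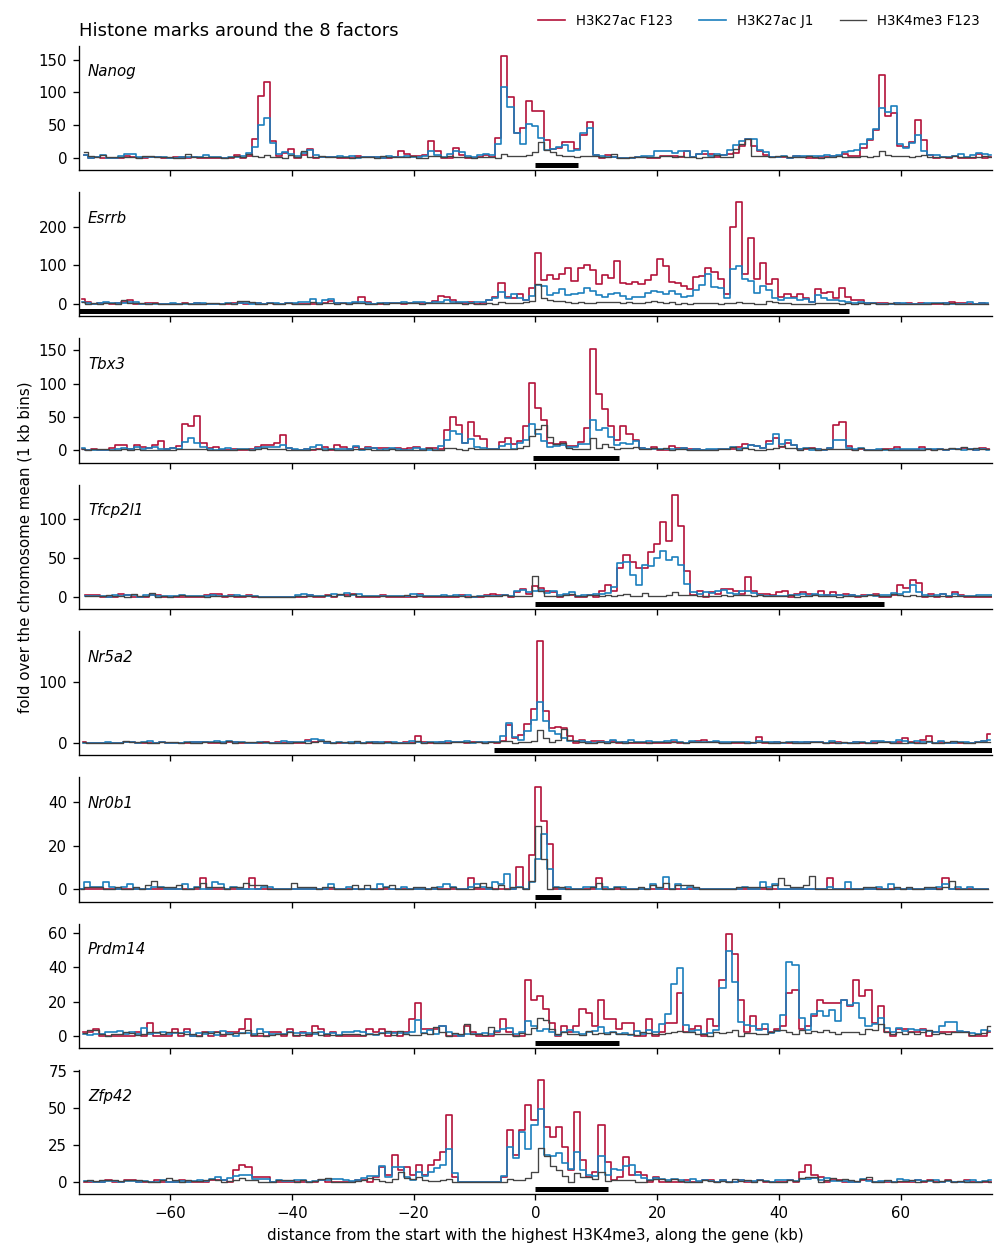
H3K27ac in F123 and J1 and H3K4me3 in F123 in 1 kb bins, as fold over the chromosome mean of the library, by distance in kb from the start with the highest H3K4me3 (upstream negative), with the annotated gene as a black bar and an own vertical scale for each gene. Acetylation runs over 71 kb at Esrrb, has its highest bins away from the start at Tfcp2l1 and Prdm14 and has them in the stretch that holds the start at Nr0b1.

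Tbx3 and Tfcp2l1 are factors downstream of LIF that keep cells naive, Tbx3 as a T-box repressor and Tfcp2l1 as a Grainyhead-type factor activated by Stat3. Tbx3 (chr5:120120678-120134733, plus strand) had the largest fall of the set by the log2 ratio. It was at 101.1 FPKM in wild type and at 18.6, 10.4 and 10.4 in the clones. The biallelic clone stood at 99.3% (85.0 to 116.0) of the CAST-/129+ clone, so the counts show no further step from that clone. It stood at 55.7% (49.2 to 63.0) of the CAST+/129- clone. Relative to wild type the clones had 18.4% (17.3 to 19.5), 10.3% (9.24 to 11.5) and 10.2% (9.15 to 11.4). Tfcp2l1 (chr1:120524522-120581744, plus strand) went from 86.7 FPKM to 20.6, 13.8 and 13.3. Its biallelic clone was at 96.4% (86.9 to 106.9) of CAST-/129+ and at 64.5% (59.2 to 70.2) of CAST+/129-. The clones had 23.7%, 15.9% and 15.3% of wild type. Both genes passed a 5-fold threshold in CAST-/129+ and CAST-/129-, Tfcp2l1 only narrowly, with log2 ratios of -2.35 and -2.39. With every alignment taken as library size, Tfcp2l1 was at -2.31 and -2.25, short of 5-fold in both clones.

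Their chromatin differed. Tbx3 carried H3K27ac at its start, 61.3-fold in F123 and 23.0-fold in J1, as well as at a pair of inner annotated starts, 78.3-fold and 27.7-fold at the stronger one, and its highest bin away from starts lay 13.5 kb upstream at 50.3-fold and 29.4-fold. Tfcp2l1 was only 9.62-fold and 7.12-fold at its start. Inside the gene, however, a stretch of 26 kb in F123 and 23 kb in J1 reached 131-fold 23 kb from the start and 58.6-fold 21 kb from it.

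Prdm14, a PR domain factor that represses FGF signalling and DNA methyltransferases, lies at chr1:13103538-13117244 on the minus strand. It was the least abundant member, at 13.2 FPKM in wild type and 3.82, 4.25 and 1.07 in the clones. The counts behind these levels were 844, 122, 66 and 16 alignments. Relative to wild type they are 28.8% (23.6 to 34.9), 32.1% (24.6 to 41.2) and 8.08% (4.60 to 13.2). Both monoallelic clones kept the smaller part of the wild type level, yet were not called, because the added value of 4 FPKM weighs heavily on a low gene (log2 ratios of -1.14 and -1.06). Its start carried 22.1-fold H3K27ac in F123 but only 5.07-fold in J1, barely over the 5-fold threshold. Higher bins lay behind the gene, with 59.6-fold in F123 and 49.6-fold in J1 at 31.7 kb downstream of the start.

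In the order of levels Zfp42, Nanog and Tbx3 led in wild type, followed by Esrrb, Tfcp2l1, Nr0b1, Nr5a2 and Prdm14. Over all annotated exons each neighbour differed beyond counting error. The order of Tbx3 and Esrrb depends on the exons counted. Without the exons before its marked start Esrrb was at 102.6 FPKM in wild type, beside 101.1 for Tbx3. Esrrb was only 1.04 times (1.01 to 1.06) the level of Tfcp2l1, on intervals that are too narrow. In the clones Tbx3 lay behind Esrrb and Tfcp2l1. Nr5a2 and Nr0b1 could not be ordered in either monoallelic clone, nor could Tbx3 and Nr0b1 or Nr5a2 and Prdm14 in CAST-/129-.

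At the level of chromatin all 8 had a start over 5-fold in H3K4me3, in H3K27ac of F123 and in H3K27ac of J1, where 48.0%, 29.9% and 23.9% of protein-coding genes had one. The factors differed less from other genes in H3K4me3, with percentiles from 55.2 (Prdm14) to 98.0 (Tbx3), than in H3K27ac of F123. There they ran from 81.4 (Tfcp2l1) to 99.99 (Esrrb), taking the highest start of each gene. For Esrrb and Tbx3 this was an inner start. That of Esrrb had H3K4me3 of only 3.25-fold, and its exon had 0 alignments in wild type. At its marked start Esrrb had H3K27ac of 64.1-fold in F123 and 33.2-fold in J1. Each factor also had a bin over 5-fold away from starts within 50 kb in both H3K27ac libraries, but so did 70.4% and 56.1% of protein-coding genes. A threshold of 50-fold left 5 in F123 (Nanog, Esrrb, Tbx3, Tfcp2l1 and Prdm14) and 3 in J1 (Nanog, Esrrb and Tfcp2l1), with 8.24% and 3.24% of protein-coding genes. Of the bins over 10-fold around the 8 genes, 161 were shared by both cell lines, 73.2% of the 220 in F123 and 88.0% of the 183 in J1, where the genome as a whole had 51.9% and 78.8%.

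**Figure D4:**
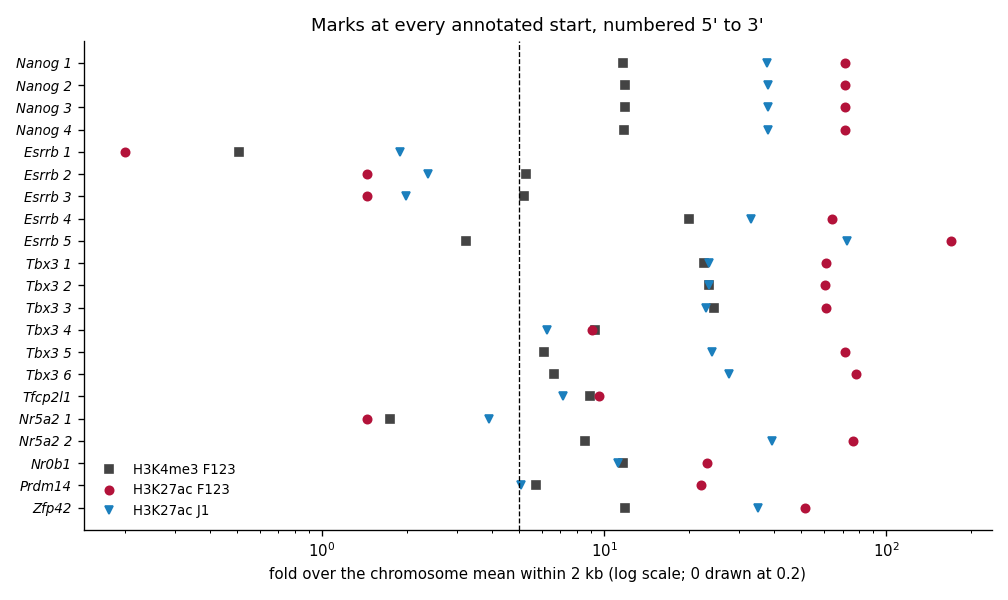
H3K4me3 and H3K27ac within 2 kb of every annotated start of the 8 genes, numbered from 5′ to 3′, as fold over the chromosome mean on a log axis, with a dashed line at 5-fold. The outer starts of Esrrb and Nr5a2 lie left of the line in H3K27ac while an inner start lies far to its right.

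The other genes of the network moved less uniformly. Of 16 further network genes, 4 were called lower in CAST-/129-, namely Sox2, Klf4, Tcl1 and Tet2, and Dppa3 was called higher in every clone. Klf4, a Krüppel-like factor and LIF target, went from 120.5 FPKM to 19.3, 13.9 and 8.29, Tcl1, a co-activator of Akt, from 53.5 to 5.60, 2.49 and 2.22, and the DNA demethylating enzyme Tet2 from 53.3 to 22.1, 9.27 and 8.50. Pou5f1 (Oct4) was at 188.4, 131.7, 206.9 and 163.4 FPKM. The median log2 ratio of the 16 was -0.39 in CAST+/129-, -0.40 in CAST-/129+ and -0.39 in CAST-/129-, closer to all genes than that of the 8 naive factors. Among genes outside the set the 3 ratios of Socs3, a LIF feedback inhibitor, were the nearest to the median of the 8, with a largest difference of 0.09 on the log2 scale, followed by Efhc2, Tex14, Pcsk6 and Arid5b, over 9520 genes and 3 ratios.

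Markers of other cell types moved in the same libraries. None of 8 general embryonic stem cell markers, such as Utf1 and Dppa5a, was called in either direction, and their summed FPKM went from 1216 in wild type to 1481, 1393 and 1117. Fibroblast markers, which feeder cells express, summed to 19.005 FPKM in wild type and to 69.4, 73.8 and 377.0 in the clones. Of these 8 genes 2, 2 and 6 were called higher, and Lum was at 0 in wild type. In the monoallelic clones the called genes were Col1a1 (3.48 FPKM in wild type, 39.0 and 38.9) and Col1a2. Thy1 was lower there, at 11.4 FPKM in wild type and at 5.69, 6.28 and 27.7 in the clones. Pdgfrb was at 2.34 FPKM in wild type and at 2.14, 4.07 and 9.02. Of 7 trophectoderm markers 3, 4 and 3 were called higher, namely Krt8, Krt18 and Hand1 in every clone and Eomes in CAST-/129+. Cdx2 stayed between 0.0712 and 1.59 FPKM. Primed epiblast markers had 1, 3 and 1 of 7 called higher. Fgf5 went from 0.129 FPKM to 4.01, 26.9 and 24.5 and was not called in CAST+/129-. The gene called there was Otx2, at 3.20 FPKM in wild type and at 23.9, 28.3 and 15.2 in the clones. Zic2 went the other way in the monoallelic clones, from 7.89 FPKM to 4.51 and 6.27, and was at 8.23 in CAST-/129-. Primitive endoderm markers were high in wild type, with Gata6 at 42.9 FPKM against 2.94, 6.77 and 4.51 in the clones, and 3 of 8 were called lower in each. Not all went this way, as Foxa2 was at 1.36 FPKM in wild type and at 0.643, 9.05 and 11.4 in the clones, which was not called. The part of these shifts in the levels of the naive factors was not tested.

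**Figure D5:**
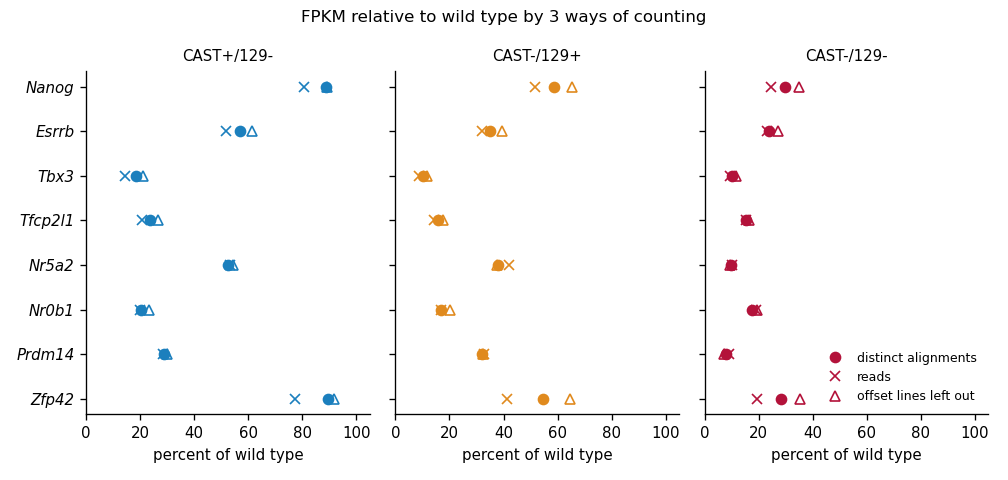
Level of each factor as a percentage of wild type in the 3 clones, by distinct alignments (circles), by all reads (crosses) and with lines left out that stand 2 bases after an identical line (triangles). All 8 factors lie below wild type in each clone by each of the 3 ways of counting.

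Counting reads in place of distinct alignments put Zfp42 at 77.4%, 41.3% and 19.2% of wild type and Nanog at 80.7%, 51.6% and 24.7%. The wild type library is the deepest, with 24848422 alignments on genes against 5831199 to 12458881 in the clones, and its distinct positions were read more often. Zfp42 had 3.46 reads per distinct alignment in wild type and 1.32 in CAST-/129-. For Nanog and Zfp42 the 3-fold call in CAST-/129- was lost when offset lines were left out or the chromosome median was subtracted, and for Prdm14 it was lost by reads. With every alignment taken as library size Nanog and Prdm14 lost it, and with 10 FPKM added in place of 4 Nanog, Nr5a2 and Prdm14 did, as did Nr0b1 in CAST+/129-.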

How the data were processed

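The authors mapped RNA-seq reads with Novoalign and ChIP-seq reads with Bowtie to mm9, versions not given in the sources used here, and deposited lists of aligned positions, each with the whole-number count of reads that share it. The H3K4me3 antibody differs between the sample labels and the study's methods. RNA alignments (7557984 to 33684661 per library) were counted by midpoint, on the strand opposite to the line, in exonic bases of 1 gene of GENCODE M1, for genes of at least 200 such bases. The value of 4 added to FPKM and the 3-fold rule follow the study's methods, whose FPKM formula is not given in the sources used here. ChIP 5′ ends (1576875 to 7743500) were counted within 2 kb of starts and in bins of 1 kb, relative to the mean of that chromosome in the library, without input. Intervals are exact Poisson, or exact binomial for ratios. Of lines on RNA, 21.2% to 25.6% have an identical line 2 bases before. Python 3.11.15, numpy 2.4.6, pandas 2.3.3 and scipy 1.17.1 were used, and counting and the rule were tested on simulated data. The named genes are the 8 factors, Sox2, network genes past 3-fold in CAST-/129-, marker examples, nearest genes and the 5 genes of most similar ratios. Members, lists and motifs were chosen with earlier results of these data known. Pou3f1 and Tfap2c could not be counted.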

Additional observations from a re-analysis of the deposited data

How the results depend on the processing

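All 24 values of the 8 factors stayed below wild type in the 11 ways of computing the ratio, which gave 264 values, 63 of them outside the counting interval of the reported one. Not all of these ways could have given another direction. A different added value cannot move a ratio across wild type, and counting all exonic bases changed the ratios of Tfcp2l1 only. The count of factors called lower changed by more than 1.5 times with the threshold or the added value. It was 0 in CAST+/129- and 2 in CAST-/129- at 5-fold, where 0.0444% and 0.0921% of all genes were called lower. At 2-fold it was 6 in CAST-/129+ (1.53% of all genes), and with 10 FPKM added it was 5 in CAST-/129- (0.159%). The biallelic count was 6 with every alignment taken as library size (0.337% of all genes), 7 by reads (0.397%), and 6 under each of the alternatives chosen after seeing the data (offset lines left out, chromosome median subtracted). With offset lines left out 0.521% of all genes were called lower. The chromosome median was subtracted for the 8 factors only, so that count has no share of all genes beside it. At 10-fold, 5 factors (and 27.03% of protein-coding genes) had a start in H3K4me3. At 50-fold, also chosen after seeing the data, 5 and 3 had a distal bin in H3K27ac of F123 and J1. Relative to the mean over all chromosomes, 7 factors had a start over 5-fold in H3K4me3 and 6 in H3K27ac of J1. By that mean 7 had a distal bin over 5-fold in each H3K27ac library. With the most 5′ start only, 6 had a start over 5-fold in each ChIP library. By reads, 7 had one in H3K27ac of J1. Intronic RNA could not be compared, since 1 factor (Zfp42) had at least 10 intronic alignments in wild type and 71.3% of the 8658 genes with long introns had 0. No paired analysis was possible because each condition has 1 library and the labels carry no replicate numbers, which also leaves no replicate to leave out. Depth limits Prdm14 and Nr5a2 in CAST-/129- (16 and 43 alignments).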

Other observations

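Zfp42, the single factor with countable intronic RNA, had 40 intronic sense alignments beside 24848422 alignments on genes in wild type, 15 beside 12458881 in CAST+/129-, 2 beside 6058939 in CAST-/129+ and 0 beside 5831199 in CAST-/129-. Upstream of its start, from 5.64 to 12.6 kb, 7 bins in a row held 0 alignments in all 3 ChIP libraries although the genome sequence there has 0 unresolved bases. Antisense RNA was scarce at the factors, the highest share being that of Nr5a2 in CAST-/129-, with 8 antisense against 43 sense alignments. In the other libraries Nr5a2 had 12, 12 and 0 antisense alignments against 1887, 497 and 174 sense ones.

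Genes beside the factors did not share one course. Slc2a3, the glucose transporter gene 13176 bases from Nanog, was at 71.2 FPKM in wild type and at 54.5, 98.9 and 47.7 in the clones. Gli2, an effector of hedgehog signalling beside Tfcp2l1, was at 18.5 FPKM in wild type and at 3.32, 4.66 and 8.79 in the clones, and it passed 3-fold in CAST+/129-. Clasp1, on the other side of Tfcp2l1 at 18513 bases, was at 20.2, 15.4, 17.9 and 21.6 FPKM. Vash1, beside Esrrb, had 6.52 FPKM in wild type and 0.794, 1.499 and 1.25 in the clones. Ncoa2, the closest neighbour of any factor at 11942 bases from Prdm14, was at 9.32 FPKM in wild type and at 5.34, 6.65 and 5.12 in the clones. The neighbours named here were chosen after their values were seen.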
